A study of Mus musculus with 32 samples.

Results

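The genes described here encode the proteins of the mitochondrial ribosome, and they were taken as every gene whose symbol in the deposited gene lists is Mrpl or Mrps followed by a number and at most 1 letter. This gave 78 genes of 32285. By their known place, 51 belong to the large subunit of the ribosome and 26 to the small subunit. Mrps36 carries the name but is now known as a part of the 2-oxoglutarate dehydrogenase complex, and it was kept because the symbol rule takes it. The symbols Mrps30 and Mrps18a are named for the small subunit, but both proteins sit in the large subunit and were counted there.

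Mitochondria carry a small genome of their own, and the proteins it encodes are core parts of the respiratory chain. They are made inside the organelle by a dedicated ribosome whose RNAs come from the mitochondrial genome, while all of its proteins are encoded in the nucleus, made in the cytosol and imported. Some of these proteins have counterparts in bacterial ribosomes and others are found only in mitochondria. Neural progenitors of the developing cortex are known to rely more on glycolysis, and neurons more on respiration.

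The RNA of single cells was counted in C57BL/6J mouse embryos of 4 ages, E12.5, E14.5, E16.0 or E17.5 (days of embryonic development), from the dorsal telencephalon, which later forms the cerebral cortex. Embryos were wild type (WT) or heterozygous for a loss of Chd8, a gene for a chromatin remodeller (genotype Chd8+/-, labelled Chd8 het and called het below), and each stage had 4 WT and 4 het libraries, 32 in all. Each library came from 1 embryo. WT and het embryos were paired by litter and by sex, and the pairs are named here M1 and M2 (male) or F1 and F2 (female). The labels give no further detail of the Chd8 allele, and the medial wall with the future hippocampus was dissected away. Libraries were made with the 10x Genomics 3' droplet kit, and each unique molecular identifier (UMI) counts 1 captured RNA molecule.

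After filters, 138226 cells were kept. Cells were sorted by software into 3 overlapping classes, by at least 1 UMI of Sox2 (a factor of radial glia, the stem cells of the cortex), Eomes (a factor of intermediate progenitors) or Neurod6 (a factor of excitatory neurons). A library held between 432 and 4133 Sox2-detected cells, between 386 and 1926 Eomes-detected cells and between 964 and 5433 Neurod6-detected cells. A cell with more than 1 of these markers counts in each of its classes. A single UMI does not settle identity, since free RNA can give one: Sox2, Eomes and Neurod6 were detected in 39.0%, 23.0% and 61.5% of all cells (median 6272 UMIs), and in 6.92%, 3.85% and 15.8% of 260 cells with at least 3 of 5 microglia markers (median 6388 UMIs), which should lack them. In 462 cells with at least 3 of 4 endothelial markers, which were deeper (median 14423 UMIs), the shares were 12.3%, 8.01% and 27.3%. These shares pool stages that differed. All cells had a median of 8100 UMIs at E12.5 and 4607 at E17.5. At E12.5, Sox2 was in 18.6% of microglia and 28.5% of endothelial cells, and at E17.5 in 6.58% and 4.43%. Eomes was in 4.65% and 11.1%, then in 2.63% and 4.43%. Neurod6 was in 11.6% and 17.4%, then in 17.1% and 29.7%. Counts were summed per library and class and scaled to CPM, the usual unit of counts relative to the total of that sum, so a CPM is a share of the RNA captured in that class and not an amount per cell. Since genes differ in length and in how well their 3' ends are captured, CPM values are compared between samples for 1 gene and not between genes.

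Chd8 itself, over all cells, was lower in the het library than in its WT partner in 15 of 16 pairs, with a het to WT ratio between 0.492 and 1.17 and a median of 0.835. The exception was the F1 pair of E17.5. At E12.5, the het libraries M1, F1 and F2 stood apart from the 4 WT libraries and from het M2 on the first principal component of expression in each class, and they were shallower: their Sox2-detected cells had median depths of 6851, 4774 and 6600 UMIs, against 9295 to 11202 in WT and 11419 in het M2. In the labels, the M2 pair of E12.5 has sample codes that start differently from those of the other 3 pairs, and what the codes stand for is not stated. At E17.5, WT M1, het M1 and het F1 stood apart, and the summed level of 6 stress genes in their Sox2-detected cells was 1258, 1118 and 1084 CPM, against at most 882 CPM in the others. Counts of called members are also given without these libraries.

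The promoters of 5 members are printed because the results turn on them: Mrps27 had the largest fall between stages in Sox2-detected cells, Mrps10 rose in every class, Mrps11 and Mrpl46 are neighbours that fell together, and Mrpl39 had the largest difference between cells with Neurod6 alone and cells with Sox2 alone at E16.0. Each is a RefSeq window of 300 bases on GRCm38.p6, from 250 before to 50 after a transcript start, read 5′ to 3′ on the strand of the gene. Capitals mark exact matches on either strand to motifs of 3 factor families linked to nuclear genes for mitochondria: CCGGAAG (ETS factors), GCCATNTT (YY1) and GCATGCGC (NRF1).
Mrps27, chr13:99344536-99344835, plus strand: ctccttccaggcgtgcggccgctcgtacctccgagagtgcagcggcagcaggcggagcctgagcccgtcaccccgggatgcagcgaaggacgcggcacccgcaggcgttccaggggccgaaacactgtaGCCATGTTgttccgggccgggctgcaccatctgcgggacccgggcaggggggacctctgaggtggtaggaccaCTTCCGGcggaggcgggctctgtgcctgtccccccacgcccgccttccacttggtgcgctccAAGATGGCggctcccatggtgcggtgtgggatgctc
Mrps10, chr17:47368947-47369246, plus strand: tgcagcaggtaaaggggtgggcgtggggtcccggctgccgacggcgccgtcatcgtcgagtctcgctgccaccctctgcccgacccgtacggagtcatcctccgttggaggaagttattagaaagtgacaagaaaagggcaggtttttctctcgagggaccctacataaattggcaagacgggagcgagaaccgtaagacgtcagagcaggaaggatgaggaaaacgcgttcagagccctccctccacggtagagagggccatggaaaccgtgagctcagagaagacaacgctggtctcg
Mrps11, chr7:78782881-78783180, plus strand: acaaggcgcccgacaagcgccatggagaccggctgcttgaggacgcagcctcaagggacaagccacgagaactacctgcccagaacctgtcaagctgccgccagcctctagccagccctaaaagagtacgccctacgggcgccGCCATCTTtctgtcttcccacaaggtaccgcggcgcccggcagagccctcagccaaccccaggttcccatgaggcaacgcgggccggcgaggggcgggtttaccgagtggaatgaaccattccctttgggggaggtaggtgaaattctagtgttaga
Mrpl46, chr7:78783040-78783339, minus strand: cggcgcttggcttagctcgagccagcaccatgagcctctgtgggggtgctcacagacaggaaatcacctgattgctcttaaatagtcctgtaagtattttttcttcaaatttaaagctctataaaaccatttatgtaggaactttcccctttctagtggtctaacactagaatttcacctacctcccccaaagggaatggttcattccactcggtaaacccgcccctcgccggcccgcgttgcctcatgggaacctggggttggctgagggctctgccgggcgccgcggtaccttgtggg
Mrpl39, chr16:84735195-84735494, minus strand: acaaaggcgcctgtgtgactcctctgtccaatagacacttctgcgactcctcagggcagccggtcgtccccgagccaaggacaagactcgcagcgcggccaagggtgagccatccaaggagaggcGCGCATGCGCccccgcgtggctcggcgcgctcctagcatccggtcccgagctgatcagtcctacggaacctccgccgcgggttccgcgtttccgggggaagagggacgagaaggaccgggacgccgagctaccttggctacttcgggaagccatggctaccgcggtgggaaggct

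The Mrps11 and Mrpl46 windows lie head to head and share 141 bases, at chr7:78783040-78783180, so that both genes start from 1 short stretch in opposite directions. The Mrps27 window held an ETS match on the other strand and 2 YY1 matches, 1 per strand, the Mrps11 window a YY1 match, and the Mrpl39 window a stretch that reads as the NRF1 motif on both strands. No match lay in the Mrps10 or Mrpl46 window. Over all members, 69 had a window in the RefSeq table, 75 windows in total. The ETS motif was in 34.7% of these windows, against 16.1% for the genes tested here and 8.86% for all promoter windows in the table. The YY1 motif was in 28%, against 7.8% and 6.05%. The NRF1 motif was in 10.7%, against 4.9% and 2.71%. The SP-factor motif GGGCGG was in 52.0% of member windows and 61.3% of those of tested genes, and the CCAAT box was in 40.0% and 37.7%. With these neighbours included, 24 of the 69 members (34.8%) had a window that overlapped that of a gene on the opposite strand, against 19.1% of tested genes, among them Mrps12 with Sars2, Mrps27 with Ptcd2 and Mrpl47 with Ndufb5. A match is a description of the letters, and binding was not measured.

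**Figure D1:**
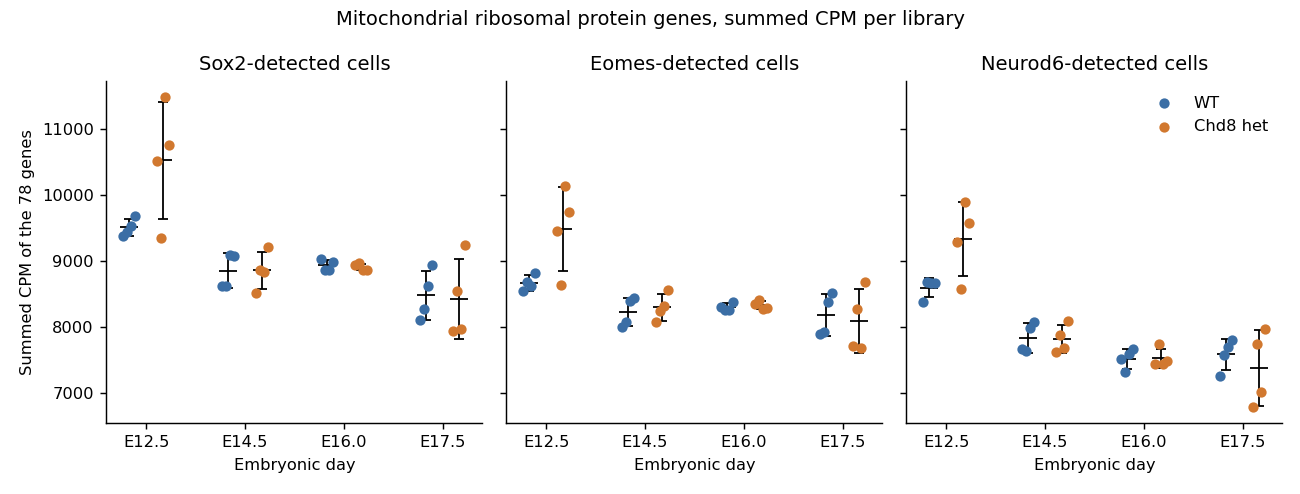
Summed CPM of the 78 members per library, by stage, in Sox2-, Eomes- and Neurod6-detected cells; each point is 1 library and the black marks are the group mean ± SD (n = 4). WT sums in Sox2-detected cells lie between 9384 and 9688 CPM at E12.5 and between 8104 and 8933 CPM at E17.5, and the het libraries M1, F1 and F2 of E12.5 lie above all WT libraries of that stage in each class.

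Between E12.5 and E17.5, most mitochondrial ribosomal protein genes fell in WT cells of all 3 classes. In Sox2-detected cells 52 of the 78 members fell and 3 rose, in Eomes-detected cells 44 fell and 3 rose, and in Neurod6-detected cells 51 fell and 2 rose (edgeR's quasi-likelihood test, Benjamini-Hochberg adjusted over all genes tested, threshold 0.05). The median log2 fold change over the members was -0.42, -0.29 and -0.43, against 0.04, 0.02 and 0.04 over all genes tested. Calls were common at this distance in development, and of all genes 27.6% were called lower and 31.5% higher in Sox2-detected cells, 24.3% and 25.5% in Eomes-detected cells, and 27.8% and 31.7% in Neurod6-detected cells. The same 42 members were called lower in each of the 3 classes, with log2 fold changes from -0.98 (Mrps27) to -0.27 (Mrpl43, which shares exon bases with Twnk on the other strand) in Sox2-detected cells, and 21 members were called lower in none. Only Mrps10 and Mrpl48 were called higher in all 3. The classes share cells and libraries, so these counts are not independent of each other. The share of all genes called in all 3 classes is not given here, so the overlap of calls cannot be read as particular to the members. When cells with more than 1 of the 3 markers were left out, which takes most Eomes-detected cells, the count in Eomes-detected cells dropped from 47 to 6. The share of all genes called in that fit is not given here.

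The summed CPM of all members shows the size of the change. In Sox2-detected cells of WT M1, M2, F1 and F2 it was 9384, 9443, 9527 and 9688 CPM at E12.5 and 8104, 8266, 8625 and 8933 CPM at E17.5, with no overlap. In Neurod6-detected cells it was 8375, 8676, 8662 and 8661 CPM at E12.5 and 7256, 7583, 7694 and 7804 CPM at E17.5, again with no overlap. In Eomes-detected cells the means were 8667 CPM ± 115 and 8181 CPM ± 314 (SD, n = 4), and the highest late library, at 8522 CPM, was just below the lowest early one, at 8549 CPM. In cells with 1 marker and neither other, the sums at E12.5 and E17.5 were 9541 to 9834 and 8148 to 9087 CPM for Sox2 and 7970 to 8128 and 7114 to 7530 CPM for Neurod6, without overlap. For Eomes they overlapped, at 8379 to 8748 and 8320 to 9363 CPM. The Eomes-only sums of E12.5 also held 18175, 49190, 36720 and 176 CPM of 6 erythroid genes in M1, M2, F1 and F2, against 190 to 748 CPM at E17.5, which lowers the share of every other gene. A sum weights abundant genes most, and the fits use TMM scaling, which sets library sizes so that most genes do not move, so sums and fitted medians are on different scales. Without TMM, on plain library totals, the median of all genes shifted up to 0.21, 0.14 and 0.12 in the 3 classes, and the calls were 41 lower and 5 higher, 33 lower and 4 higher, and 48 lower and 5 higher. The shares of all genes called on plain totals are not given here. Relative to the median of all genes, the median of the members was -0.46, -0.31 and -0.47 under either scaling. A change of scaling moves all genes of a library together, so this difference could hardly change and its agreement is no added support.

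Both subunits took part. Of the 51 genes of the large subunit, 37, 30 and 36 fell in the 3 classes and 1 rose in each, Mrpl48. Of the 26 genes of the small subunit, 15, 14 and 15 fell, and 2, 2 and 1 rose. Members found only in mitochondria had lower medians than those with a bacterial counterpart in all 3 classes, -0.57, -0.40 and -0.47 for 31 genes against -0.38, -0.25 and -0.40 for 46, and the difference itself was not tested.

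**Figure D2:**
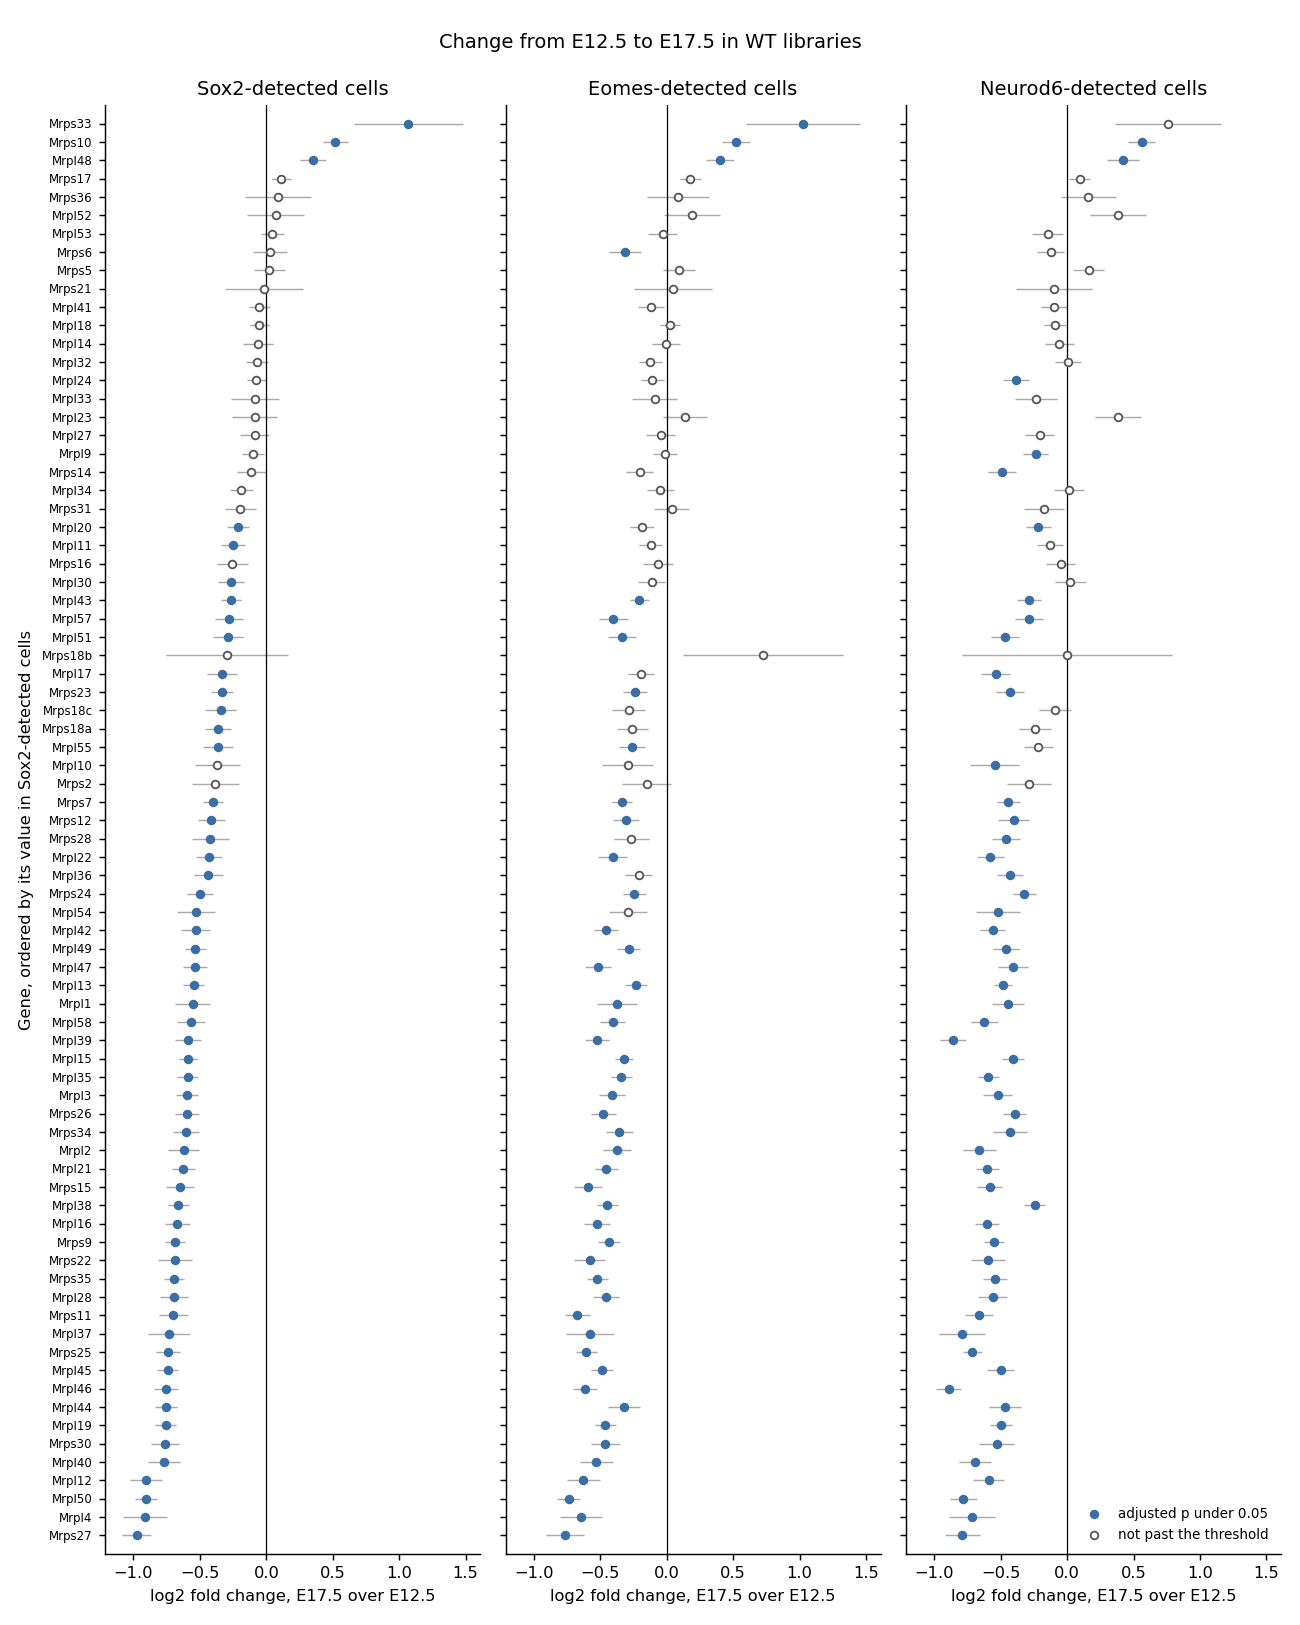
Fitted log2 fold change of each member between WT E12.5 and WT E17.5, ordered by its value in Sox2-detected cells, in 1 panel per cell class, with bars of ± 1 SE and filled points where the adjusted p is below 0.05. Most points lie below 0, with Mrps27 lowest in Sox2-detected cells at -0.98 and Mrps33, Mrps10 and Mrpl48 above 0.

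Mrps27, a protein of the small subunit with pentatricopeptide repeats, a fold that binds RNA, had the largest fall in Sox2-detected cells. It was at 28.02, 32.1, 30.9 and 29.2 CPM in the WT libraries of E12.5 and at 17.96, 14.9, 16.4 and 19.7 CPM in those of E17.5. No late library reached an early one, and the log2 fold change was -0.98 (SE 0.11, adjusted p = 5.7e-09). It was -0.77 in Eomes-detected and -0.79 in Neurod6-detected cells. Its gene at chr13:99344786-99415562 shares exon bases with 6430562O15Rik on the other strand, and the counts cannot separate them if strand was not used. Members named for their change between stages were picked among called members whose libraries did not overlap. The lack of overlap given for them in the class where they were picked follows from that choice.

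Mrpl50, a large-subunit protein found in mitochondria and not in bacteria, was at 132, 131, 142 and 134 CPM in WT Sox2-detected cells at E12.5 and at 73.3, 85.7, 79.0 and 85.0 CPM at E17.5. All 4 late libraries were below all early ones, with a log2 fold change of -0.91 (SE 0.09, adjusted p = 2.6e-10). At E14.5 and E16.0 it averaged 114 CPM ± 5.79 and 114 CPM ± 4.91 (SD, n = 4), so its level stepped down before E14.5 and again after E16.0. In Neurod6-detected cells its means were instead 111, 84.1, 80.0 and 68.6 CPM over the 4 stages.

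The stalk of the large subunit recruits translation factors. Mrpl12, which forms the flexible part of the stalk, fell from 251, 284, 269 and 282 CPM to 135, 174, 156 and 187 CPM in Sox2-detected cells, with no overlap and a log2 fold change of -0.91 (SE 0.12, adjusted p = 2.3e-07). The fall was -0.63 in Eomes-detected and -0.59 in Neurod6-detected cells. Mrpl10, which anchors the stalk, was called in Neurod6-detected cells at -0.55 (adjusted p = 0.012) and not in Sox2-detected cells at -0.37 (adjusted p = 0.065), where WT M1 of E17.5 was at 23.2 CPM and the other 3 were between 41.1 and 44.1 CPM. Mrpl11, at the base of the stalk, was called in Sox2-detected cells at -0.25 (adjusted p = 0.019) and in neither other class. Mrpl12 overlaps Gm16755 on the other strand, and Mrpl10 overlaps Gm11574.

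Mrps12, a protein of the decoding centre, fell in all 3 classes, by 0.42, 0.31 and 0.40 on the log2 scale. Mrpl58, a peptidyl-tRNA hydrolase built into the large subunit that frees stalled chains, fell by 0.57, 0.40 and 0.63. Mrpl44, which has a fold of the RNase III family, fell by 0.76, 0.32 and 0.47, and Mrpl45, which lies near the exit of the nascent chain, fell by 0.74, 0.49 and 0.50. Mrps30 fell by 0.76, 0.46 and 0.53. On the other strand, Mrpl58 shares exon bases with Ict1os, Mrpl44 with Wdfy1, Mrps30 with B430218F22Rik and Mrps18b with Gm16279, and Mrps18c shares them with Gm43511 on its own strand, so their counts may include reads of those genes. Of the 3 paralogs of the Mrps18 family, Mrps18a was called only in Sox2-detected cells, at -0.36 (adjusted p = 0.0023), as was Mrps18c, at -0.34 (adjusted p = 0.013), and Mrps18b was near 1 CPM at both ends and not called in any class. Differences between the paralogs were not tested. Mrpl41, which has also been linked to cell death, was not called in any class, with log2 fold changes of -0.05, -0.12 and -0.10. Mrps36, the member outside the ribosome, was at 0.09, 0.09 and 0.16 and was not called. Some of these calls rested on 1 library. Without WT M1 of E17.5, Mrpl10 in Neurod6-detected cells was at -0.39 (adjusted p = 0.067), Mrpl11 in Sox2-detected cells at -0.21 (adjusted p = 0.064) and Mrpl44 in Eomes-detected cells at -0.23 (adjusted p = 0.12). Mrpl11 was also not called without WT M2 of E17.5 (adjusted p = 0.051), nor Mrpl44 in Eomes-detected cells without WT M2 of E12.5 (adjusted p = 0.057).

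The neighbours Mrps11 and Mrpl46, whose promoter windows overlap, fell by 0.70 and 0.75 in Sox2-detected cells, by 0.67 and 0.62 in Eomes-detected cells and by 0.67 and 0.89 in Neurod6-detected cells, all called. In Neurod6-detected cells Mrpl46 was at 74.7, 78.2, 76.3 and 81.8 CPM at E12.5 and at 44.3, 45.04, 44.6 and 43.9 CPM at E17.5, a tight pair of groups with no overlap (SE 0.09, adjusted p = 4.3e-09). The genes lie on opposite strands at chr7:78783119-78792989 and chr7:78775236-78783531 and share exon bases, so their counts may not be fully separate. Mrpl39, which resembles threonyl-tRNA synthetases in part of its sequence, fell in Neurod6-detected cells from 59.8, 57.6, 60.3 and 57.3 CPM to 35.4, 34.2, 31.9 and 35.6 CPM, again with no overlap and a log2 fold change of -0.86 (SE 0.10, adjusted p = 1.3e-08). Mrpl37 fell in the same cells by 0.79 (adjusted p = 0.00026), with WT M1 of E17.5 lowest at 17.8 CPM against 27.9 to 32.1 CPM in the other late libraries, and by 0.65 without the 3 libraries of E17.5 that stood apart. Mrpl4 fell in Sox2-detected cells by 0.92, where WT M1 of E17.5 was also lowest, at 43.3 CPM against 69.5 to 82.4 CPM, and by 0.74 without the 3 libraries. Mrpl40 fell there by 0.77, and by 0.69 without them.

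Mrps10, a small-subunit protein with a bacterial counterpart, went the other way in every class. In Sox2-detected cells it was at 51.8, 52.4, 51.3 and 48.3 CPM at E12.5 and at 85.4, 76.1, 82.1 and 85.6 CPM at E17.5, with means of 65.2 CPM ± 0.376 at E14.5 and 77.6 CPM ± 4.33 at E16.0 (SD, n = 4). The 4 libraries of E12.5 lay below all later WT libraries, and the fitted log2 fold change was 0.52 (SE 0.09, adjusted p = 1.9e-05). It was 0.52 in Eomes-detected cells (adjusted p = 0.00013) and 0.56 in Neurod6-detected cells (adjusted p = 2.7e-05). No annotated gene shares exon bases with it at chr17:47368887-47381417.

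Mrpl48, a mitochondria-specific protein of the large subunit, rose in Sox2-detected cells from 68.5, 70.7, 68.9 and 65.7 CPM to 86.6, 99.1, 104 and 103 CPM, with no overlap and a log2 fold change of 0.35 (SE 0.10, adjusted p = 0.003). The changes in Eomes- and Neurod6-detected cells were 0.40 (adjusted p = 0.0024) and 0.42 (adjusted p = 0.0037). Its gene shares exon bases with Rab6a, a gene of vesicle transport on the other strand, and the counts do not tell both sources apart if strand was not used. Mrps33 was called higher in Sox2-detected cells, at 1.07 (SE 0.41, adjusted p = 0.029), and in Eomes-detected cells, at 1.03 (adjusted p = 0.05), but its spread between libraries was the widest of all members (SD of log2(CPM + 1)). At E12.5 it was at 87.8, 49.3, 95.2 and 63.8 CPM in Sox2-detected cells and at E17.5 at 184, 149, 182 and 183 CPM. Its call was lost in Sox2-detected cells without WT M2 or F2 of E12.5 or WT M1 or F1 of E17.5, with adjusted p between 0.05 and 0.086. Without the 3 libraries of E17.5 that stood apart it was lost in both classes (adjusted p = 0.058 and 0.090).

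**Figure D3:**
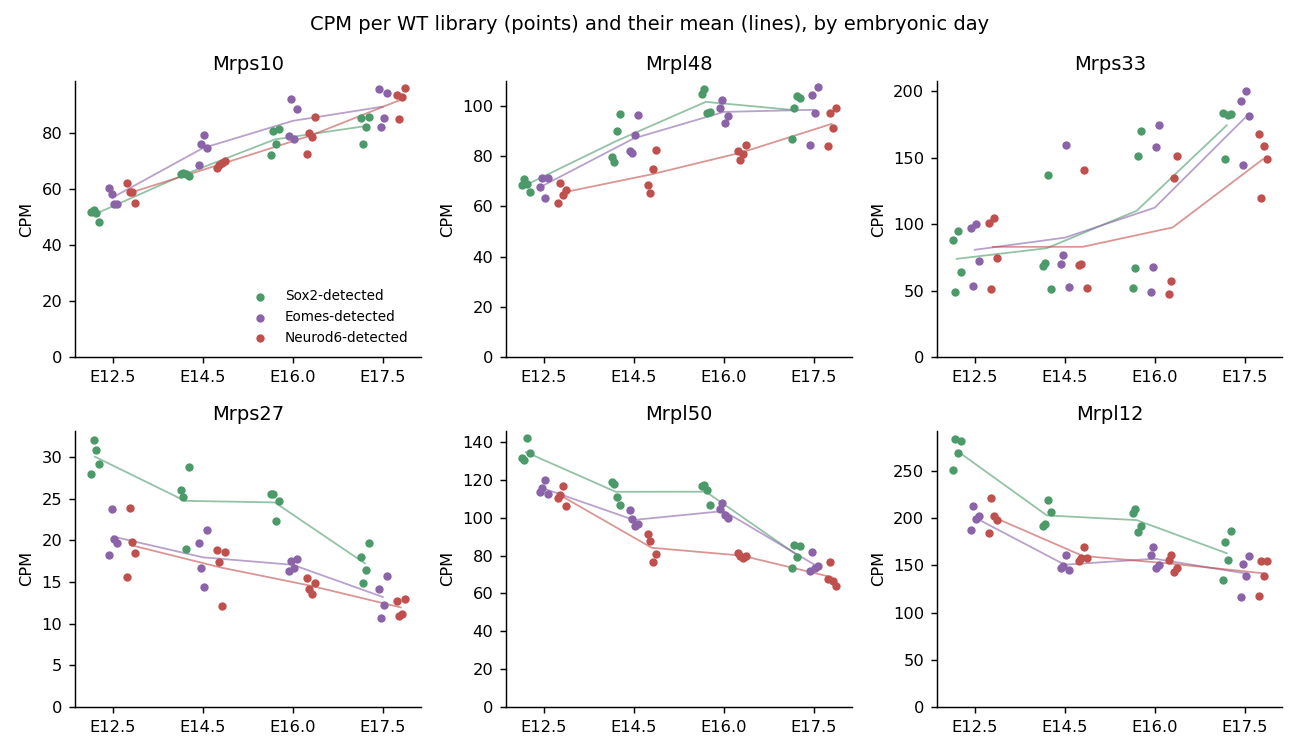
CPM of 6 members in each WT library at the 4 stages, in the 3 cell classes, with 1 point per library and lines through the group means. Mrps27, Mrpl50 and Mrpl12 are lower at E17.5 than at E12.5 and Mrps10 and Mrpl48 higher, with Mrps10 in Sox2-detected cells at means of 50.9 and 82.3 CPM, while the points of Mrps33 scatter widely within a stage.

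The change was then followed over the 3 steps between stages, and differences between steps were not tested. From E12.5 to E14.5, 30 members fell and 1 rose (Mrps10) in Sox2-detected cells, where 37.4% of all genes were called. In Eomes-detected cells 13 fell and 2 rose (Mrps10 and Mrpl48), beside 29.5% of all genes, and in Neurod6-detected cells 19 fell, beside 37.3%. From E14.5 to E16.0, 3 members fell in Sox2-detected cells (8.82% of all genes called), 1 in Eomes-detected cells (6.23%) and 14 in Neurod6-detected cells (11.1%), and none rose. From E16.0 to E17.5, 16 fell and 1 rose in Sox2-detected cells (22.5%), 5 fell and 1 rose in Eomes-detected cells (7.34%), and 3 rose and none fell in Neurod6-detected cells (5.67%). Mrpl23, a large-subunit protein with a bacterial counterpart, was the member that rose at this last step in all 3 classes. The shares of all genes are for both directions together, and shares by direction are not given here for the steps. Against them, the members called in both directions were near or below the share of all genes. The exception was the middle step in Neurod6-detected cells, with 14 of 78 called. Differences between classes in these counts were not tested. With cells of more than 1 marker left out, the calls in Neurod6-detected cells were 6 at the first step and 27 at the middle one, and those in Eomes-detected cells were 1 at the first step instead of 15. On plain library totals, the middle step in Neurod6-detected cells had 1 call instead of 14 and the last step in Sox2-detected cells 31 instead of 17. With thinned cells, the first step in Sox2-detected cells had 17 calls instead of 31. The shares of all genes called under these alternatives are not given here.

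Counts of the later steps depended on single libraries. In Neurod6-detected cells the 14 calls of E14.5 to E16.0 became 23 without WT F1 of E14.5 or het M1 of E17.5, 22 without het F1 of E14.5, and 7, 5, 4, 2 and 1 without WT M2 of E14.5, WT F2 of E16.0, WT M1 of E14.5, WT F2 of E14.5 and WT M2 of E16.0. The 17 calls of the last step in Sox2-detected cells became 11 without WT M1 or M2 of E16.0 and 10 without WT F2 or M2 of E17.5. The 3 calls of the middle step in Sox2-detected cells became 0 without WT F2 of E14.5 or WT F2 or M2 of E16.0 and 1 without WT M1 or M2 of E14.5. The 1 call in Eomes-detected cells became 2 without het M2 of E12.5 or WT F1 of E14.5 and 0 without WT M1 or M2 of E14.5 or WT F2 of E16.0. At the last step, the 6 calls in Eomes-detected cells became 1 without WT M1 or M2 of E16.0 or WT M2 of E17.5 and 3 without WT F2 or M1 of E17.5. The 3 calls in Neurod6-detected cells became 5 without het M2 of E12.5, 0 without WT M1 or M2 of E16.0 or WT F1 or M2 of E17.5, and 1 without WT F2 of E17.5. Het libraries enter through the shared estimate of the spread. The shares of all genes called in the fits without single libraries are not given here. The calls between E12.5 and E17.5 moved much less, to between 48 and 58, 39 and 50, and 49 and 57 in the 3 classes.

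Other cell types moved with stage in the same sums. In WT Sox2-detected cells the summed level of 8 radial glia markers went from 3272-3825 CPM at E12.5 to 7989-9231 CPM at E17.5, with 2 of them called higher and 4 lower. The summed level went, for 6 interneuron markers, from 2.87-30.4 CPM to 162-651 CPM and, for 4 markers of oligodendrocyte precursors, from 1.13-1.61 CPM to 203-466 CPM, with all 6 and all 4 called higher. The 8 excitatory neuron markers went there from 555-704 CPM to 1460-1747 CPM, with 5 called higher, and the 6 intermediate progenitor markers from 774-1132 CPM to 1242-1846 CPM, with 4 called higher. All 4 meningeal markers were called lower, and 3 cell cycle genes lower and 1 higher. In Neurod6-detected cells the 6 cell cycle genes went from 719-912 CPM to 239-371 CPM, with 5 called lower, and the 8 excitatory neuron markers from 3920-4811 CPM to 4829-5714 CPM, with 5 called higher and 2 lower. The 8 radial glia markers went from 1612-1999 CPM to 925-1461 CPM, with 5 called lower and 2 higher, and the 6 intermediate progenitor markers from 1630-2120 CPM to 670-1019 CPM, with 5 called lower and 1 higher. There too, all 6 interneuron markers and all 4 of oligodendrocyte precursors were called higher, and 4 of 5 Cajal-Retzius markers and all 4 meningeal markers lower. In Eomes-detected cells, 3 radial glia markers were called higher and 5 lower, 5 excitatory neuron markers higher and 3 lower, 3 of 5 tested interneuron markers higher, and 3 cell cycle genes lower and 1 higher. No marker of these lists was at 0 in both stages. A fall in a class sum can come from fewer cells of a type with a high level or from less RNA of the gene per cell. Since CPM is a share, it can also come from more RNA of other genes. These cannot be told apart in class sums, and the part of cell make-up in the fall was not tested. Without WT M1, het M1 and het F1 of E17.5, 50, 38 and 50 members fell and 2 rose in each class. The shares of all genes called in those fits are not given here.

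Other genes of mitochondrial translation were counted in the same fits, in which 27.6%, 24.3% and 27.8% of all genes were called lower. Of 5 ribosome proteins with other symbols, such as Dap3 and Ptcd3, 4, 3 and 2 fell in Sox2-, Eomes- and Neurod6-detected cells. Of 38 factors of mitochondrial translation and ribosome assembly, 22, 10 and 18 fell and 1, 1 and 4 rose. Of 17 mitochondrial aminoacyl-tRNA synthetases, the enzymes that charge the organelle's tRNAs, 11, 5 and 8 fell and 2, 4 and 2 rose. Of 84 cytosolic ribosomal protein genes, 53, 16 and 24 fell and 1, 1 and 2 rose, with medians of -0.40, -0.15 and -0.19. In Eomes-detected cells the falls of the translation factors were near the share of all genes and those of the cytosolic ribosomal proteins below it, and in Neurod6-detected cells the latter were near it. Of 83 nuclear genes of oxidative phosphorylation, whose complexes take up the products of this ribosome, 30, 29 and 31 fell and 5, 2 and 2 rose, with medians of -0.15, -0.17 and -0.18. Of the 11 protein-coding genes of the mitochondrial genome that were tested, 4, 3 and 9 rose and 1, 1 and 0 fell, with medians of 0.25, 0.23 and 0.68, beside 31.5%, 25.5% and 31.7% of all genes called higher. The share in Sox2- and Eomes-detected cells is near that of all genes.

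Within each library, cells with Neurod6 alone were then set against cells with Sox2 alone, classes rich in neurons and in radial glia. Cells with 2 of the markers were left out, and library was a block in the fit. In WT libraries the 8 radial glia markers, Sox2 among them, summed to 3406-15634 CPM in Sox2-only and 366-1039 CPM in Neurod6-only cells, and the 8 excitatory neuron markers, Neurod6 among them, to 161-1645 CPM and 6020-8733 CPM. At E17.5 the Sox2-only cells also held 327-1127 CPM of interneuron markers and 327-798 CPM of oligodendrocyte precursor markers, so they were not radial glia alone. Most members were lower in the Neurod6-only cells at every stage. Of 77 members tested, 48, 49, 56 and 40 were lower and 18, 15, 14 and 9 were higher at the 4 stages in order. These are contrasts between cell types in which most genes were called, 82.2%, 83.6%, 86.5% and 74.6%, with 40.6%, 41.5%, 41.6% and 34.8% of all genes called lower and 41.6%, 42.1%, 44.9% and 39.8% higher. The median log2 difference of the members was -0.27, -0.27, -0.40 and -0.22, against 0.01, 0.01, 0.05 and 0.06 over all genes. On plain library totals the split moved to 56, 54, 62 and 47 lower and 13, 11, 7 and 6 higher. The shares above belong to the fits with TMM, and those of all genes on plain totals are not given here. Lower at all 4 stages were 34 members, and higher at all 4 were 8: Mrpl23, Mrpl32, Mrpl34, Mrpl41, Mrpl52, Mrps5, Mrps10 and Mrps34. The shares of all genes called at all 4 stages are not given here, so these counts cannot be read as particular to the members. With cells of 2 markers kept, Mrpl23 was instead lower at E12.5, at -0.092 (adjusted p = 0.0038). Mrps34 shares exon bases with Nme3 and Mapk8ip3. Mrps18b was too low to be tested.

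Mrps14, a small-subunit protein with a bacterial counterpart, had the smallest adjusted p among the members in these contrasts. Over the 8 libraries of E16.0 it ranged from 292 to 315 CPM (median 302) in Sox2-only cells and from 115 to 132 CPM (median 126) in Neurod6-only cells. The classes did not overlap at that stage or at any other, and the log2 difference at E16.0 was -1.20 (SE 0.04, adjusted p = 4.6e-27). At E12.5 it was -0.67 and at E17.5 -1.06. Between WT E12.5 and E17.5, however, Mrps14 was not called in Sox2-detected cells (-0.11, adjusted p = 0.38), while it fell by 0.49 in Neurod6-detected cells.

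Mrpl39 ranged from 69.6 to 78.9 CPM (median 75.7) in Sox2-only cells of E16.0 and from 23.7 to 32.4 CPM (median 29.0) in Neurod6-only cells, without overlap, for a log2 difference of -1.31. It was -0.55, -0.86 and -0.98 at E12.5, E14.5 and E17.5. Mrps28, a small-subunit protein counted as having a bacterial counterpart, and Mrps31, a mitochondria-specific one, differed by -1.09 and -1.18 at E16.0, and neither overlapped between classes there. Mrps31 was low, at 14.3 to 20.4 CPM in the Neurod6-only cells.

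Among the members that were higher in Neurod6-only cells, Mrpl34, a small basic protein of the large subunit with a bacterial counterpart, ranged from 124 to 157 CPM (median 139) in Sox2-only cells and from 188 to 232 CPM (median 206) in Neurod6-only cells at E16.0. The classes did not overlap, and the log2 difference of 0.69 (adjusted p = 1.2e-18) was larger than that of 0.21 at E12.5. Mrpl23 differed by 0.56 at E16.0, but its ranges of 84.1 to 139 CPM and 115 to 198 CPM overlapped between embryos, since the difference is within libraries and its level varied between them. Mrpl52, a mitochondria-specific protein, differed by 0.49, and Mrpl32, which is cut by a protease before it joins the ribosome, by 0.24. Mrps10, which rose with stage, was also higher in Neurod6-only cells, by 0.45, 0.27, 0.20 and 0.34 at the 4 stages. Mrpl48, which also rose with stage, was lower in them at E12.5, E14.5 and E16.0, with log2 differences of -0.19, -0.40 and -0.46, and not called at E17.5.

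**Figure D4:**
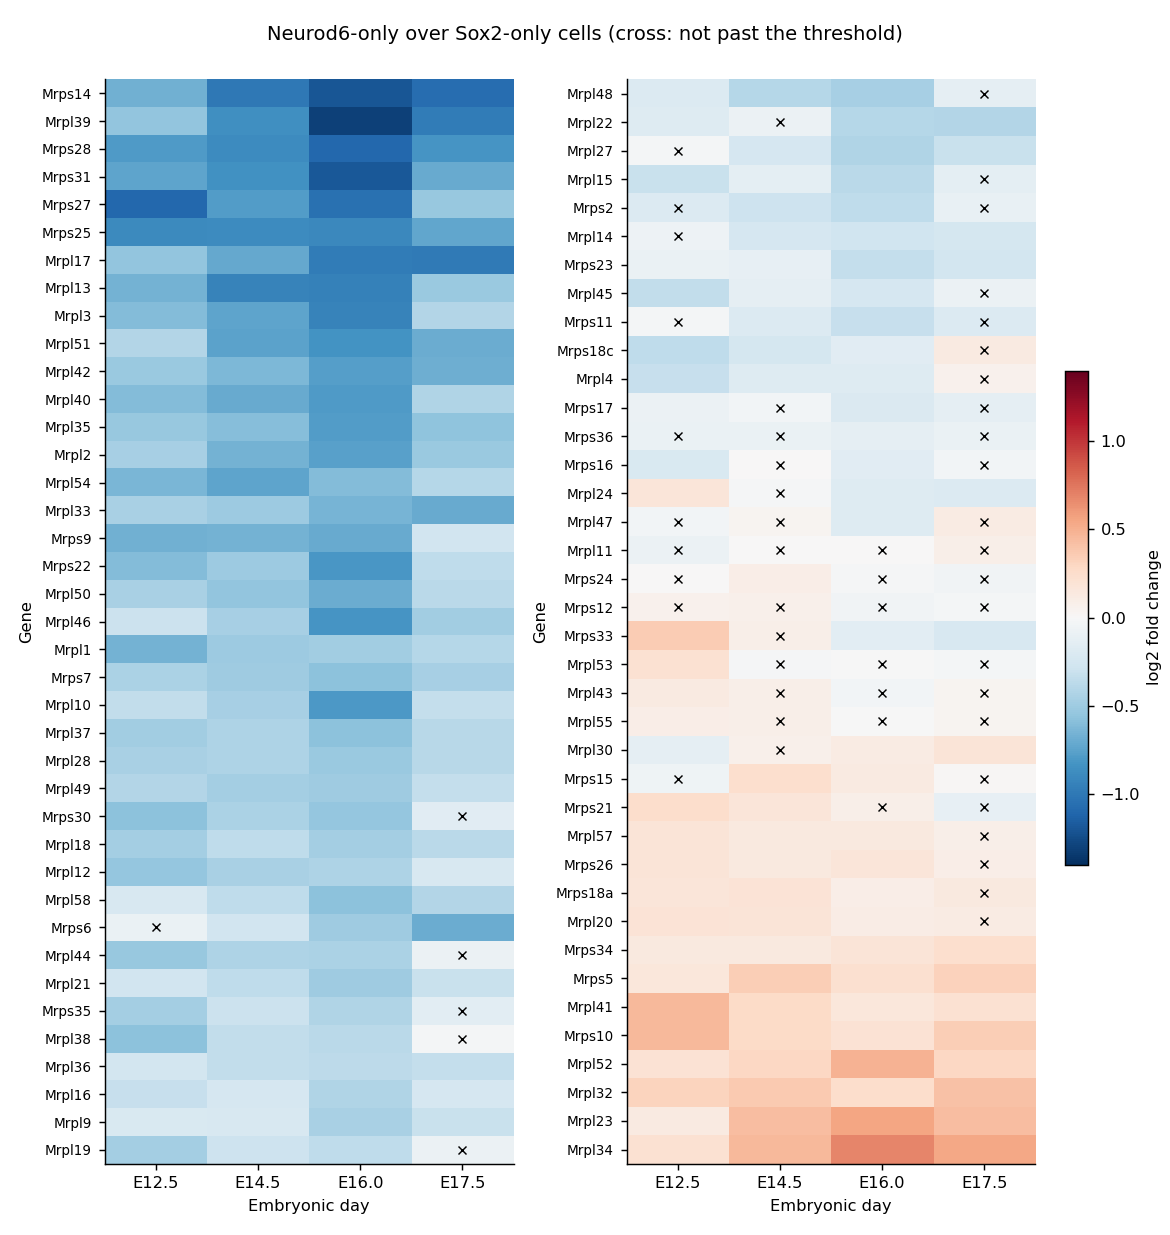
Heat map of the fitted log2 difference of 77 members (rows, ordered by the mean over stages) between Neurod6-only and Sox2-only cells at the 4 stages (columns), with red for higher and blue for lower in Neurod6-only cells and a cross where the adjusted p is 0.05 or more. Most cells of the map are blue, down to -1.31 for Mrpl39 at E16.0, and the highest value is 0.69 for Mrpl34 at E16.0.

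Other lists were counted in the same contrasts of Neurod6-only against Sox2-only cells. There, 40.6%, 41.5%, 41.6% and 34.8% of all genes were called lower and 41.6%, 42.1%, 44.9% and 39.8% higher at the 4 stages in order. The 11 mitochondrially encoded genes were higher in Neurod6-only cells, 9 of them at E12.5 and 11 at each later stage. Of the 82, 83, 83 and 81 nuclear oxidative phosphorylation genes tested, 52, 39, 31 and 9 were higher and 12, 24, 36 and 26 lower. The share called lower at E17.5 is near that of all genes. Of the 17 mitochondrial aminoacyl-tRNA synthetases, 11, 12, 14 and 8 were lower and 2 were higher at each stage. The factors of mitochondrial translation and ribosome assembly were more mixed. Of 38 tested, and 37 at E17.5, 18, 16, 16 and 7 were lower and 7, 10, 9 and 11 higher. Their medians were -0.11, -0.06, -0.09 and 0.06. Of the 84 cytosolic ribosomal protein genes tested, 82, 57, 32 and 39 were lower and 1, 12, 36 and 8 were higher, with medians of -0.39, -0.17, 0.019 and -0.12. For Eomes-only cells against Sox2-only cells, the members' counts were 34, 14, 16 and 4 lower and 6, 8, 16 and 3 higher. In both directions together, 40, 22, 32 and 7 of 77 members were called, beside 48.9%, 27%, 39.1% and 18.4% of all genes. The members' calls were thus near the share of all genes at E12.5, E14.5 and E16.0 and below it at E17.5. Sums of Eomes-only cells rest on 14 to 154 cells per library, so their depth was the smallest in these fits. The Eomes-only sums of WT M1, M2 and F1 at E12.5 also held the erythroid RNA given above, and its part in these counts was not tested.

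Loss of 1 Chd8 copy was the other comparison of the design. Averaged over the 4 stages, edgeR's quasi-likelihood test called 0 of the 78 members in any class, where it called 0.565%, 0.244% and 0.247% of all genes. Unadjusted p was below 0.05 for 10, 13 and 5 members, and DESeq2 called 0, 0 and 1. With the litter pair as a block, 1 member was called in each class. The shares of all genes by unadjusted p, with DESeq2 and with the block are not given here. The members with the smallest p in Neurod6-detected cells were Mrpl16, at -0.17 (SE 0.04, adjusted p = 0.14), and Mrps10, at 0.17 (SE 0.05, adjusted p = 0.27), both on the log2 scale. Mrpl16 was at -0.16 in Sox2-detected and -0.14 in Eomes-detected cells, with adjusted p of 0.13 and 0.30.

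At E12.5 the summed level of the members was higher in 3 of the 4 het libraries than in any WT library. In Sox2-detected cells the summed CPM of the members was 9384, 9443, 9527 and 9688 in WT M1, M2, F1 and F2 and 10511, 9345, 11490 and 10755 in the het libraries in the same order. Het M1, F1 and F2 lay above every WT library, and het M2 lay below every one. In Eomes-detected cells the het sums were 9453, 8631, 10131 and 9745 CPM against 8549 to 8820 CPM in WT, and in Neurod6-detected cells they were 9287, 8582, 9887 and 9572 CPM against 8375 to 8676 CPM.

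The test called 6 members higher in Sox2-detected cells at E12.5 (Mrpl1, Mrpl22, Mrpl27, Mrpl51, Mrps10 and Mrps12), 2 in Eomes-detected cells (Mrps10 and Mrps12) and 0 in Neurod6-detected cells, and none lower. Of all genes, 1.57%, 0.442% and 0.00686% were called, and 1.1%, 0.336% and 0.00686% were called higher. The median log2 fold change over the members was 0.23, 0.19 and 0.20. In Neurod6-detected cells 35 members had an unadjusted p below 0.05, and DESeq2 called 17. For neither count is the share of all genes given here, so neither is a result particular to the members. The CPM values of the 4 het and 4 WT libraries did not overlap for 9, 7 and 5 members that were higher and 3, 1 and 1 that were lower, beside 4.27%, 2.61% and 1.97% of all genes higher and 6.51%, 4.23% and 4.51% lower. With the litter pair as a replicate block, 36, 20 and 16 members were called. The share of all genes called with the block is not given here, so these counts are not a result particular to the members.

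Mrps12, the protein of the decoding centre, was at 119, 118, 122 and 124 CPM in WT Sox2-detected cells and at 151, 122, 171 and 151 CPM in het ones. Het M2 fell among the WT libraries and the other 3 lay above them, for a log2 fold change of 0.40 (SE 0.10, adjusted p = 0.039). Mrps10 was at 61.2, 57.3, 71.2 and 57.6 CPM in het libraries against 48.3 to 52.4 CPM in WT. Here all 4 het libraries, M2 included, lay above all WT libraries, with a log2 fold change of 0.37 (SE 0.09, adjusted p = 0.039) and of 0.47 in Eomes-detected cells (adjusted p = 0.032). Mrpl22, a protein at the exit tunnel with a bacterial counterpart, was at 112, 85.5, 121 and 105 CPM against 83.7 to 92.4 CPM, so that het M2 again fell within WT. Mrpl1 was at 51.2, 38.6, 62.4 and 47.6 CPM against 33.9 to 40.6 CPM, and Mrpl27 at 129, 102, 162 and 130 CPM against 102 to 111 CPM, each with het M2 within or below the WT values. Mrpl27 shares exon bases with Eme1 on the other strand and Mrpl51 with Mir3098 on its own.

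Without het M1, F1 and F2, the libraries already seen to be high, only het M2 was left at E12.5, and it was taken to vary like the other groups. This is a description and not a test: no member was called then, and Mrpl22, Mrps12, Mrpl1 and Mrpl27 were at -0.054, -0.031, -0.011 and -0.096. Left out alone, het M2 raised the counts to 38, 31 and 29. The share of all genes called in that fit is not given here. It keeps het M1, F1 and F2, in which 48.7%, 54.9% and 51.8% of all genes lay below all WT libraries in Sox2-detected cells. Without any other single library of E12.5 the counts were 0 in Sox2- and Eomes-detected cells, and without WT F1 of E17.5 the count in Sox2-detected cells was 0 as well, as the adjusted p values of the 6 members lay between 0.039 and 0.05. It was between 1 and 3 without WT F2 or het M2 of E14.5 or any of the 8 libraries of E16.0. The counts were also 0 in Sox2- and Eomes-detected cells on plain library totals and with cells thinned to 2500 UMIs, where the median over members was 0.17 in Sox2-detected and 0.15 in Eomes-detected cells. Thinning left out cells below that depth, and classes were picked again on the thinned counts. The cells left out numbered 274, 818 and 109 in het M1, F1 and F2 and 0 in the other libraries of E12.5. Within the 3 pairs whose sample codes start alike, the het sums in Sox2-detected cells were 10511 to 11490 CPM against 9384 to 9688 CPM, and within the M2 pair they were 9345 against 9443 CPM.

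**Figure D5:**
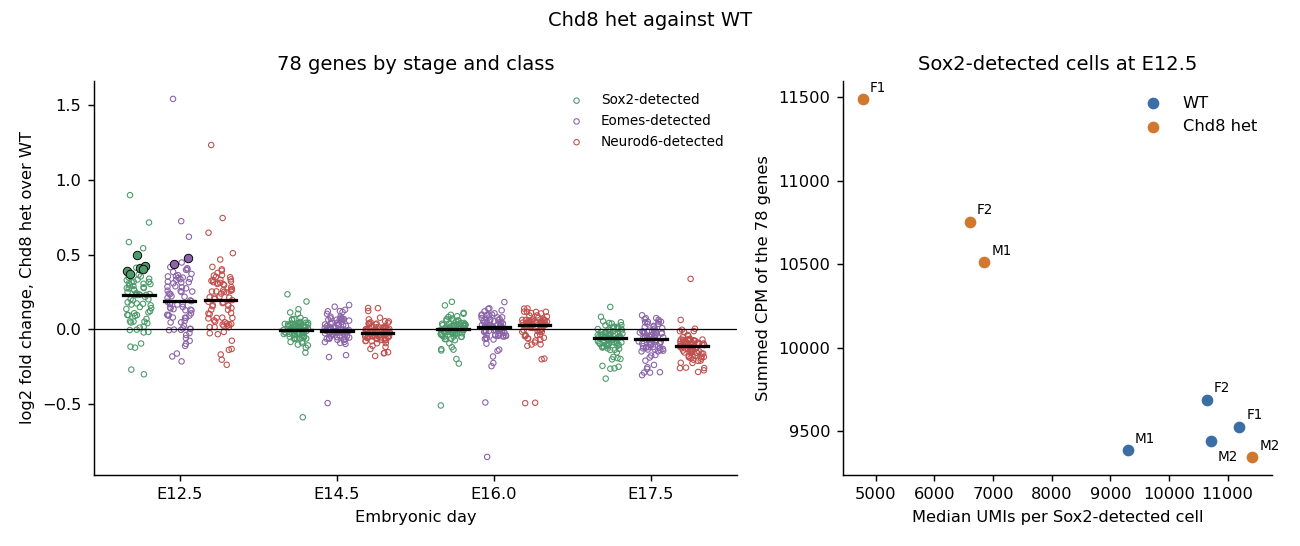
Left, fitted log2 fold change of each member between het and WT at each stage in the 3 cell classes, with 1 point per member, the median as a black bar and called members filled; right, summed CPM of the members against the median UMIs per Sox2-detected cell in the 8 libraries of E12.5. At E12.5 the medians are 0.23, 0.19 and 0.20, and at E17.5 they are -0.06, -0.07 and -0.12, with no member called after E12.5, and the het libraries M1, F1 and F2 have the highest sums and the lowest depths.

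Depth and other genes moved with the same 3 libraries. In Sox2-detected cells, 50, 57 and 52 of the 78 members were above all WT libraries in het M1, F1 and F2 and 18 in het M2. Of all genes tested, 21.4%, 24.2% and 16.1% were above all WT libraries and 48.7%, 54.9% and 51.8% below them in het M1, F1 and F2, against 37.7% above and 17.6% below in het M2. Nuclear oxidative phosphorylation genes had a median of 0.24 and cytosolic ribosomal protein genes of 0.02 in the same fit. Stress genes summed to 1062, 495, 875 and 761 CPM in het M1, M2, F1 and F2 against 451 to 790 CPM in WT, and erythroid genes to 38.5, 4615, 135 and 2327 CPM against 339 to 4099 CPM. In Neurod6-detected cells, intermediate progenitor markers summed to 2967, 1536, 2472 and 2469 CPM against 1630 to 2120 CPM. No marker gene of any list was called in these fits, and the part of depth, stress or cell make-up in the het result was not tested.

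After E12.5 the test called 0 members in any class. In Sox2-, Eomes- and Neurod6-detected cells, unadjusted p was below 0.05 for 0, 0 and 1 members at E14.5, for 1, 0 and 0 at E16.0, and for 3, 6 and 9 at E17.5, and DESeq2 called 0 throughout. Of all genes, none was called at E14.5, 0.0217%, 0.00763% and 0% were called at E16.0, and at E17.5 the shares were 0%, 0.0153% and 0%. Medians over the members were -0.06, -0.07 and -0.12 at E17.5, where het M1 and F1 are among the 3 libraries that stand apart, and 0.014, 0.012 and -0.034 without these 3, again with 0 members called. A test of whether the het effect differed between stages called 0 members and 0 genes, with 16, 14 and 17 members at an unadjusted p below 0.05. The shares of all genes at an unadjusted p below 0.05 are not given here for any of these tests. In data simulated with the spread of the Sox2-detected sums, 3.66% of genes changed 1.2-fold and 55% of genes changed 1.5-fold in het were recovered at E12.5. For WT E17.5 against E12.5 these shares were 3.23% and 37.1%. Few genes were changed in the simulation of that contrast, and 70 of 13317 were called. In the real contrast 31.5% of all genes were called higher and 27.6% lower in Sox2-detected cells. A gene therefore needed a smaller unadjusted p in the simulation, and its shares do not measure what could be detected between these stages. Het contrasts of the later stages and of the other classes were not simulated, so these shares do not measure what could be detected there.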

How the data were processed

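The authors deposited UMI counts per gene and cell barcode for each of the 32 libraries, as whole-number counts with no normalization. Per the submitters' processing notes, STAR 2.7.9a, Cell Ranger, STARsolo and the build mm10 were used; the role of each tool and whether counting used strand are not stated there or in the labels. Of 145082 barcodes, 143697 passed the filters (1000 UMIs and 500 genes as minimums, 10% as the highest share of mitochondrial counts). Doublets were scored against simulated doublets (0.5 per cell, 20 neighbours, 30 components of 2000 variable genes), the top 0.8% per 1000 cells of a library were removed (5471), and 138226 cells remained. Libraries held between 14710694 and 66499864 UMIs. Pairs of libraries shared at most 1.27% of the smaller library's barcodes.

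Counts were summed per library over cells with at least 1 UMI of Sox2, Eomes or Neurod6, and tested with edgeR 4.0.16 in R 4.3.3 (TMM factors, filterByExpr, quasi-likelihood F test, 1 fit of 8 stage-by-genotype groups per class, Benjamini-Hochberg over all genes tested, threshold 0.05). Cells with 1 marker and neither of the others were compared within each stage with library as a block. DESeq2 1.42.0 was an alternative, beside others on doublets, marker UMIs, low counts, scaling, thinning to 2500 UMIs and left-out libraries; those on TMM, thinning and sets of libraries that stood apart, and the marker shares in microglia and endothelial cells, were chosen after seeing the data. Tables and figures used Python 3.11.15 with pandas 2.3.3 and matplotlib 3.10.9. Fits were tested on simulated data. Each library was 1 embryo. In the fits of 8 groups, p-values measure the spread between libraries of a group, in which differences of embryo, litter and library are not separated. In the fits between classes, they measure how the difference between classes varies from library to library.

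Pairs share litter and sex per the series' design text, so the pairing comes from the litter; deviations of the 2 libraries of a pair correlated with a median r of 0.568, 0.495 and 0.594 over 16 pairs in the 3 classes, with lowest values of -0.040, -0.13 and -0.15, and 9, 10 and 13 of the 16 WT libraries correlated best with their own het partner. In Sox2-detected cells of E12.5 r was only 0.080, 0.357, 0.039 and 0.065 in M1, M2, F1 and F2. The pair was a block only in the alternative fit. The members and lists were chosen with earlier results of these data known. Genes named with full values were the up to 5 members per direction with the largest change among called members whose libraries did not overlap (stage), the up to 5 with the smallest p (het; the 2 with the smallest p where none was called), the up to 4 per direction called at most stages (Neurod6-only against Sox2-only), and 14 chosen for their role; names that only complete a count, and the shared genes followed from one comparison to another, fall outside this rule and were chosen after their values were seen.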

Additional observations from a re-analysis of the deposited data

Results flagged for a closer look

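In 9 of 230 groups of 4 libraries examined, 1 library lay far from the other 3, with a gap to its nearest neighbour above Dixon's 95% critical value for the range of the group. Chance alone flags about 1 in 20 such groups. The summed CPM of the members in Neurod6-detected cells was low in WT M1 of E12.5, at 8375 CPM, and high in het M2 of E16.0, at 7746 CPM. Mrps33 was low in Sox2-detected cells of WT M2 of E17.5, at 149 CPM, and Mrpl10 was low in those of WT M1 of E17.5, at 23.2 CPM. Mrpl40 and Mrpl11 were low in Neurod6-detected cells of the same WT M1 library, at 50.1 CPM and 142 CPM. In Neurod6-detected cells of E12.5, Mrps18a was high in WT F1, at 117 CPM (116.56), and Mrpl41 was low in WT M2, at 111 CPM (110.95). Mrpl22 was high in Sox2-detected cells of WT F2 of E12.5, at 92.4 CPM. No member's het effect differed between stages by the test of that difference.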

How the results depend on the processing

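Each count of called members was recomputed under the alternatives, and 1127 of these counts stayed within 1.5 times the reported one while 127 did not. The shares of all genes called under the alternatives are not given beside them. Values below follow the order Sox2-, Eomes- and Neurod6-detected cells where 3 are given. Het against WT at E12.5 (6, 2 and 0 members) gave 32, 19 and 17 with DESeq2, 36, 20 and 16 with the replicate block of litter pairs, and 13, 9 and 5 without the 3 libraries of E17.5 that stood apart. The first 2 counts became 0 and 0 with thinned cells, without TMM factors, without a filter on low counts and without het M1, F1 and F2 of E12.5. They became 2 and 0 with cells of 2 markers left out, and the count in Eomes-detected cells was 1 with at least 2 UMIs of the marker. Averaged over stages, the counts of 0 became 1 in each class with the replicate block, 1 in Neurod6-detected cells with DESeq2 and 1 in Eomes-detected cells without the 3 libraries of E17.5.

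For WT E17.5 against E12.5, 47 in Eomes-detected cells became 6 with cells of 2 markers left out. For E14.5 against E12.5, 31, 15 and 19 became 17, 7 and 10 with thinned cells, 15 and 19 became 1 and 6 with cells of 2 markers left out, and 19 became 11 with at least 2 UMIs of the marker and 12 without a filter. For E16.0 against E14.5, 3, 1 and 14 became 5, 3 and 27 without the 3 libraries of E17.5 and 1, 0 and 27 with cells of 2 markers left out; 3 and 1 became 0 and 0 with thinned cells, 1 and 14 became 2 and 24 with DESeq2 and 0 and 1 without TMM factors, 3 and 14 became 0 and 3 without a filter, and 1 became 0 with at least 2 UMIs. For E17.5 against E16.0, 17 became 31 without TMM factors. There, 6 became 1 with thinned cells, 1 with cells of 2 markers left out and 2 without a filter, and 3 became 5 with DESeq2, 1 without the 3 libraries, 1 with at least 2 UMIs and 0 without a filter. For Eomes-only against Sox2-only cells, 40, 22, 32 and 7 over the stages became 66, 59, 60 and 24 with cells of 2 markers kept, the last 3 became 9, 19 and 3 with WT libraries only, and 7 became 11 with thinned cells. The cause of these shifts was not tested.

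Leaving out each library in turn gave 0 to 38, 0 to 31 and 0 to 29 for het at E12.5 and 0 to 0, 0 to 2 and 0 to 1 for het averaged over stages. It gave 48 to 58, 39 to 50 and 49 to 57 for E17.5 against E12.5, 23 to 42, 10 to 16 and 15 to 23 for E14.5 against E12.5, 0 to 4, 0 to 2 and 1 to 23 for E16.0 against E14.5, and 10 to 20, 1 to 8 and 0 to 5 for E17.5 against E16.0. Over the stages it gave 64 to 67, 62 to 66, 68 to 70 and 48 to 50 for Neurod6-only and 31 to 41, 19 to 26, 30 to 34 and 6 to 8 for Eomes-only cells.

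Of the named genes' values, 3578 kept direction and call, 199 lost the call, 36 gained it and 40 changed sign. Without het M1, F1 and F2 at E12.5, Mrpl22, Mrps12, Mrpl1 and Mrpl27 were at -0.054, -0.031, -0.011 and -0.096 in Sox2-detected cells and Mrps12 at -0.0075 in Eomes-detected cells. With cells of 2 markers kept, Mrpl23 was at -0.092 (adjusted p = 0.0038) in Neurod6-only against Sox2-only cells of E12.5. The other sign changes were between E12.5 and E17.5, in classes where the member was not called. Without TMM factors Mrpl41 was at 0.12 in Sox2-detected and 0.012 in Eomes-detected cells, Mrpl11 at 0.0055 in Eomes-detected and Mrps18b at 0.083 in Neurod6-detected cells. With cells of 2 markers left out, Mrpl11 and Mrpl41 were at 0.078 and 0.027 in Eomes-detected cells and Mrps18c at 0.20 in Neurod6-detected cells, where it was 0.058 with thinned cells. Mrps18b in Neurod6-detected cells was at 0.0059 with DESeq2. Leaving out single libraries, Mrps18b ranged from -0.54 to 0.014 in Sox2-detected and from -0.27 to 0.26 in Neurod6-detected cells.

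Depth limits the members near 1 CPM and the Eomes-only sums.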

Other observations

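A few members varied between libraries of the same group far more than the rest, which was noticed after the values were seen. The median SD of log2(CPM + 1) within groups was 0.116, 0.112 and 0.113 in Sox2-, Eomes- and Neurod6-detected cells. Mrps33 had 0.564, 0.59 and 0.574, Mrps21 had 0.396, 0.391 and 0.393, and Mrps36 had 0.324, 0.307 and 0.273. Mrps18b, near 1 CPM, had 0.301, 0.388 and 0.312, and the added 1 shrinks the spread of so low a gene. Mrpl52 had 0.275, 0.269 and 0.266. In Sox2-detected cells of E16.0, Mrps33 was at 51.8, 67.2, 152 and 170 CPM in WT M1, M2, F1 and F2, and Mrps21 was at 95.6, 84.1, 177 and 204 CPM. The male libraries were low and the female libraries high in both genes. In the het libraries of that stage Mrps33 was at 46.6, 94.8, 63.2 and 105 CPM, which does not follow that order. In E14.5 WT, Mrpl52 was at 199, 205, 356 and 307 CPM. The male and female pairs of E16.0 also carry sample codes that start differently, so sex and code cannot be told apart there. Deviations were compared between classes: over 32 libraries, which share cells between classes, r between Sox2- and Neurod6-detected cells was 0.995 for Mrps33, 0.992 for Mrps21, 0.990 for Mrpl52, 0.926 for Mrps36 and 0.639 for Mrps18b, against a median of 0.811 over the members. The sources of this spread were not tested.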
